A study of Mus musculus with 21 samples.

Results

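The chemokines Cxcl13, Ccl19 and Ccl20, their receptors Cxcr5, Ccr7 and Ccr6, the lymphotoxin subunits Lta and Ltb and the lymphotoxin receptor Ltbr were taken by probe name from an nCounter panel. All 9 genes were on the panel, of 770 genes in all. RNA came from the left lungs of 21 A/J mice of both sexes, which were received at 8 to 12 weeks of age and belong to a strain that develops lung adenomas readily. The 9 HDE mice comprised 5 with HDE + NNK and 4 with HDE only, and the 12 saline mice comprised 6 with saline + NNK and 6 with saline only. Females and males numbered 3 and 2 in HDE + NNK, 1 and 3 in HDE only, 3 and 3 in saline + NNK and 5 and 1 in saline only. HDE, hog dust extract, is made by extracting settled dust of swine barns in aqueous solution and filtering it sterile. It was given into the nose at 12.5%, 50 µL 3 times weekly over 24 weeks, and the other mice received saline in its place. NNK, a nitrosamine carcinogen of tobacco, was injected once into the peritoneum at 100 mg/kg in week 4, and mice without it received buffered saline. The lungs had been lavaged before collection, so that airspace cells may be partly missing. Tumors were counted in and cut out of the left lungs before a part of each was kept for RNA. In whole-lung RNA, more cells of a type and more transcript per cell cannot be told apart.

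These genes build and feed lymphoid tissue. Lymphotoxin on the surface of lymphocytes is a heterotrimer of Lta and Ltb that binds Ltbr on stromal cells, and the receptor acts through Traf3 and the noncanonical NF-κB factors Nfkb2 and Relb to raise chemokines such as Cxcl13 and Ccl19. Cxcl13 then draws B cells that carry Cxcr5, and Ccl19 draws T cells and mature dendritic cells that carry Ccr7. Ccl20, made largely by epithelium, attracts cells with Ccr6, among them B cells and interleukin-17-producing T cells. In lung, the same circuit is known from the tertiary follicles that arise beside bronchi during long inflammation.

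Counts were scaled by 4 housekeeping genes, and all values below are normalized counts unless called raw. Raw totals over all genes ran from 180995 to 529829 in HDE libraries and from 174604 to 524127 in saline libraries. The 8 negative control probes gave 2 to 40 counts, with a mean per library of 19.6 to 27.6 in run 1 and 7.75 to 17.5 in run 2, the 2 runs named in the file headers. Run 1 held 6 HDE and 6 saline libraries, and run 2 held 3 HDE and 6 saline libraries. The raw columns carry no sex, but their groups follow the same order as the labelled samples, whose sex is given. By that order, not checked by values, every HDE library of run 2 was male and every saline library of run 2 female. Differences in run 2 alone would then mix HDE with sex. Cxcl13, Ccr6, Ltb and Ltbr lay above their library's limit, the mean of its negative controls plus 2 SD, in 21 of 21 libraries, and Ccr7 did so in 20. Ccl20 and Cxcr5 passed it in 9 libraries each, Lta in 8 and Ccl19 in 3. The values of these 4 genes are therefore close to background. After housekeeping scaling, that background was larger in the HDE libraries of run 1. The scaled mean of the negative controls was 32.1 ± 11.3 in HDE and 20.6 ± 3.15 in saline libraries of run 1 (SD, n = 6 each), against 11.4 ± 4.11 in HDE and 12.6 ± 5.99 in saline libraries of run 2 (SD, n = 3 and 6). Its part in the differences of these 4 genes was not tested beyond the fit with background subtracted, given beside each.

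HDE lungs held more mRNA for the B cell chemokine Cxcl13, for the Ccl20 receptor Ccr6 and for lymphotoxin β, which also passed in each run alone. By the order of the labels, run 2 sets male HDE against female saline libraries, so that passing there does not separate HDE from sex. With positive control scaling, Cxcl13 passed, and Ccr6 and lymphotoxin β did not. Cxcr5, Ccl19 and Lta passed over all libraries, but they lay close to background and did not pass in run 2 alone. Ccl20, Ccr7 and the lymphotoxin receptor did not pass the test. By edgeR's quasi-likelihood test over the 388 genes whose raw counts averaged 87 or more, 2 of 3 tested members, Cxcl13 and Ltb, were higher in HDE than in saline lungs at an adjusted p under 0.05, and 0 were lower. Among all genes of that test, 39.4% were higher and 10.1% lower. The other 6 members had mean raw counts from 20.2 to 69.4 and were tested in a second fit with a minimum of 20 counts, in which 6 of 9 members were higher, 0 were lower and 40% of 663 genes were higher. That background sets the scale for a count of 6 in 9. None of the 9 genes had all HDE libraries above all saline libraries, which 6.64% of the 663 genes did. Ltb came nearest with 8 of 9 HDE libraries, followed by Ccr6 with 7, Cxcl13, Ccl19 and Lta with 6, Cxcr5 with 5, Ltbr with 1 and Ccl20 and Ccr7 with 0.

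**Figure D1:**
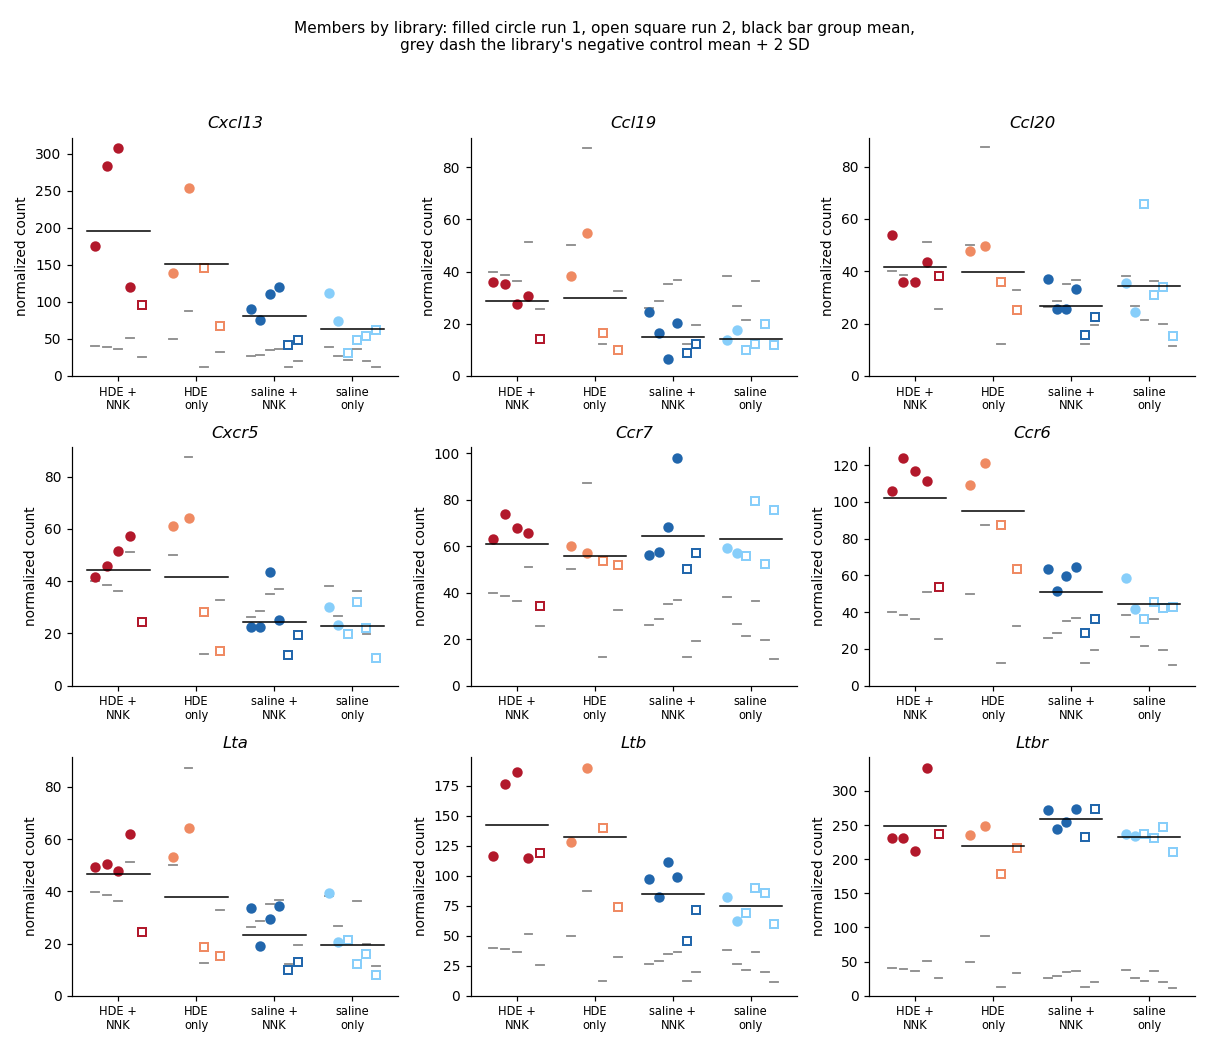
Normalized counts (y axis) of the 9 genes in each of 21 libraries, by group, with run 1 as filled circles, run 2 as open squares, group means as black bars and each library's negative control mean plus 2 SD as a grey dash. Cxcl13, Ccr6 and Ltb stand above the dashes with higher HDE groups, Ltbr is level, and most values of Ccl19, Ccl20, Cxcr5 and Lta lie near the dashes.

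Cxcl13, the follicular B cell chemoattractant, showed the largest fold of the 9 genes in the fit over all libraries. With background subtracted the log2 difference of Lta was larger (1.55 beside 1.42), and in run 1 alone that of Ccl19 was (1.22 beside 1.11). Its counts were 175, 283, 307, 119.6 and 95.8 in HDE + NNK lungs and 139, 254, 146 and 67.0 in HDE only lungs. In saline + NNK lungs they ran from 41.8 to 120.3 with a median of 83.2, and in saline only lungs from 31.3 to 111.3 with a median of 57.8. The 3 lowest HDE libraries, 2 of them from run 2, overlapped the saline range. HDE lungs averaged 176 ± 85.5 and saline lungs 72.3 ± 29.8 (SD, n = 9 and 12), a 2.38-fold difference (95% interval 1.67 to 3.40, log2 1.25 ± 0.26 SE, edgeR adjusted p = 0.00037). The level moved with the run in both exposures. Means were 213 in HDE and 97.1 in saline libraries of run 1 and 103 in HDE and 47.5 in saline libraries of run 2, and the log2 difference was 1.11 within each run (adjusted p = 0.0040 and 0.014). In run 2 the ranges were apart, with 67.0 to 146 in HDE and 31.3 to 61.5 in saline libraries.

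Cxcr5, the receptor for Cxcl13 on B cells and follicular helper T cells, had counts of 41.6, 45.8, 51.5, 57.5 and 24.3 in HDE + NNK lungs and 61.3, 64.1, 28.1 and 13.4 in HDE only lungs. The saline + NNK lungs held 11.9 to 43.5 (median 22.7) and the saline only lungs 10.7 to 32.2 (median 22.8). All 3 HDE libraries of run 2 fell inside the saline range. The HDE mean of 43.1 ± 17.8 stood 1.82-fold above the saline mean of 23.6 ± 8.82 (95% interval 1.25 to 2.65, log2 0.86 ± 0.28 SE, edgeR adjusted p = 0.013). With background subtracted the log2 difference was 1.37 (adjusted p = 0.029). It was 1.01 in run 1 (adjusted p = 0.00073) and 0.37 in run 2 (adjusted p = 0.56), where HDE and saline libraries averaged 21.9 and 19.4.

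Ccr6 separated the exposures with the smallest p of the 9 genes. Its counts were 105.6, 124, 117, 111 and 53.6 in HDE + NNK lungs and 109, 121, 87.3 and 63.6 in HDE only lungs. They spanned 28.9 to 64.8 (median 55.7) in saline + NNK lungs and 36.2 to 58.4 (median 42.5) in saline only lungs. The 2 HDE libraries within the saline range were both from run 2, and within each run every HDE library exceeded every saline library. HDE lungs averaged 99.2 ± 25.4 and saline lungs 47.7 ± 11.8, a 2.07-fold difference (95% interval 1.64 to 2.62, log2 1.05 ± 0.17 SE, edgeR adjusted p = 2.4e-05). The log2 difference was 1.06 in run 1 and 0.80 in run 2 (adjusted p = 0.015 in run 2).

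Its ligand Ccl20 did not pass the test. HDE + NNK lungs had 35.8 to 53.9 counts and HDE only lungs 25.1 to 49.9, against 15.5 to 36.9 in saline + NNK lungs and 15.2 to 65.8 in saline only lungs. The highest of all 21 values, 65.8, came from a saline only library of run 2 that carries an instrument mark and has the smallest total. The fitted difference was 1.36-fold (95% interval 0.993 to 1.85, edgeR adjusted p = 0.12). Without that library alone it was 0.57 on the log2 scale (adjusted p = 0.031), and with background subtracted 0.31 (adjusted p = 0.64).

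Ccl19, the Ccr7 ligand of T cell zones, was the dimmest of these probes. Counts in HDE + NNK lungs were 36.0, 35.0, 27.6, 30.5 and 14.05, and in HDE only lungs 38.2, 54.6, 16.4 and 10.0, against 6.63 to 24.3 in saline + NNK and 9.87 to 19.9 in saline only lungs. The fold was 1.98 (95% interval 1.32 to 2.96, log2 0.98 ± 0.30 SE, edgeR adjusted p = 0.0090). Only 1 of 9 HDE and 2 of 12 saline libraries exceeded their own background limit, and with background subtracted the call was lost (log2 1.40, adjusted p = 0.26). The run 1 averages were 37.0 in HDE and 16.5 in saline libraries, and those of run 2 were 13.5 in HDE and 12.4 in saline libraries (log2 0.23, adjusted p = 0.72).

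Ccr7, which brings naive T cells and mature dendritic cells into lymph nodes, showed no such pattern. HDE + NNK lungs held 34.5 to 73.6 counts and HDE only lungs 51.9 to 60.0, and saline + NNK lungs held 50.0 to 98.1 and saline only lungs 52.4 to 79.2. Means were 58.6 ± 11.4 in HDE and 63.9 ± 14.03 in saline lungs, a ratio of 0.915 (95% interval 0.744 to 1.12, edgeR adjusted p = 0.49). Scaling by TMM, which sets the bulk of genes equal, gave -0.44 on the log2 scale (adjusted p = 0.0080).

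Ltb, the membrane anchor of lymphotoxin, is made by B cells, T cells and innate lymphocytes. Its counts were 117, 177, 187, 115 and 119 in HDE + NNK lungs and 128, 189.9, 139.6 and 73.7 in HDE only lungs. Saline + NNK lungs ran from 45.4 to 112 (median 89.7) and saline only lungs from 59.8 to 90.0 (median 75.6). A single HDE library, HDE only from run 2 lane 12, fell within the saline range. Ltb averaged 138 ± 39.0 in HDE and 79.7 ± 18.8 in saline lungs, a 1.74-fold difference (95% interval 1.38 to 2.18, log2 0.80 ± 0.17 SE, edgeR adjusted p = 0.00037). Run 1 alone gave 0.87 and run 2 alone 0.78 on the log2 scale (adjusted p = 0.0015 and 0.040).

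Lta, the secreted subunit, had 49.4, 50.3, 47.8, 62.2 and 24.3 counts in HDE + NNK lungs and 53.2, 64.1, 18.7 and 15.1 in HDE only lungs. It had 9.80 to 34.2 in saline + NNK and 7.90 to 39.2 in saline only lungs. All 6 HDE libraries of run 1 stood above every saline library, and the 3 of run 2 did not. The fold was 1.97 (95% interval 1.28 to 3.03, log2 0.98 ± 0.32 SE, edgeR adjusted p = 0.014). Background subtraction gave a log2 difference of 1.55 (adjusted p = 0.046) and run 2 alone 0.72 (adjusted p = 0.19). Leaving out the HDE only library of run 1 lane 12 gave 0.80 with an adjusted p of 0.051.

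Ltbr, the receptor on stromal, epithelial and myeloid cells, had 230.4, 231, 211, 333 and 238 counts in HDE + NNK lungs and 236, 249, 178 and 216 in HDE only lungs. Saline + NNK lungs held 233 to 274 and saline only lungs 211 to 247. The ratio was 0.950 (95% interval 0.842 to 1.07, log2 -0.07 ± 0.09 SE, edgeR adjusted p = 0.53), so a change of the size seen for either ligand subunit lay outside its interval. The sign was negative under every scaling tried. With all housekeeping genes or TMM the fit called Ltbr lower, at -0.17 (adjusted p = 0.033) and -0.26 (adjusted p = 0.0028).

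**Figure D2:**
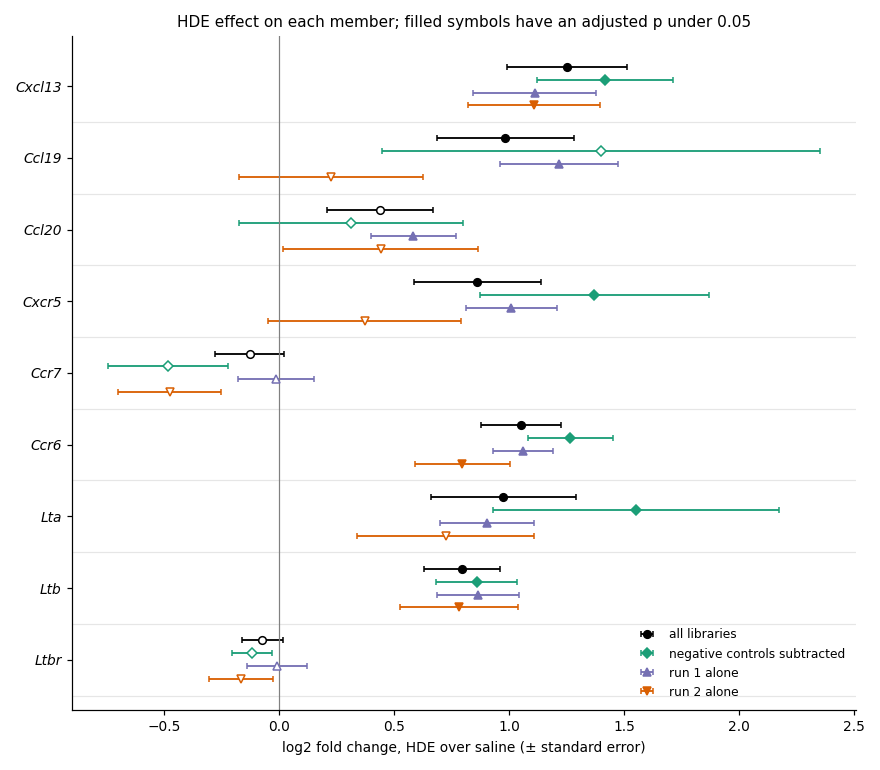
Log2 fold change of HDE over saline (x axis, bars ± SE) of each gene from all 21 libraries, with negative controls subtracted, and from run 1 or run 2 alone, with filled symbols for an adjusted p under 0.05. Cxcl13, Ccr6 and Ltb pass in all 4 fits, at 1.11 to 1.42, 0.80 to 1.27 and 0.78 to 0.87, and Ccl19, Cxcr5 and Lta do not pass in run 2.

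Because Cxcl13, Ltb and Ccr6 carried the difference in both runs, the 250 bases before their start sites are shown. RefSeq's promoter table for GRCm38.p6 held 8 windows for 7 of the 9 genes, with 2 starts for Ccr6. Both strands were searched for the NF-κB consensus, the decamer bound by Rel-family dimers, and capitals mark its matches. It was present in 3 of the 8 windows and in 3.9% of 32851 promoter windows of the same length. The Ltb window is chr17:35194257-35194506 on the plus strand, with a minus-strand match 87 bases before the start. The first Ccr6 window, chr17:8235793-8236042 on the plus strand, held no match and is not shown. The second Ccr6 window is chr17:8242276-8242525 on the plus strand, with overlapping matches 81 and 80 bases before the start. The third match was in Ccl20, and the Cxcl13 window, chr5:95956689-95956938 on the plus strand, had none. A match is a run of letters and says nothing of binding.
Ltb: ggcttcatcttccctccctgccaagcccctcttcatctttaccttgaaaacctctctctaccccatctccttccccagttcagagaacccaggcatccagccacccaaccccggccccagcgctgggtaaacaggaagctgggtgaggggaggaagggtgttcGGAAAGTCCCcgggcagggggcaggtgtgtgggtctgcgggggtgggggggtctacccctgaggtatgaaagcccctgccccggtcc
Ccr6, second start: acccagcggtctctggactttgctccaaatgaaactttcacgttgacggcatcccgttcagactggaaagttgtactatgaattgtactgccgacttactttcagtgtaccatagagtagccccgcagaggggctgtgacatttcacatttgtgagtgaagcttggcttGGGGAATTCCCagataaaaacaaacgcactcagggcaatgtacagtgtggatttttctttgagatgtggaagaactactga
Cxcl13: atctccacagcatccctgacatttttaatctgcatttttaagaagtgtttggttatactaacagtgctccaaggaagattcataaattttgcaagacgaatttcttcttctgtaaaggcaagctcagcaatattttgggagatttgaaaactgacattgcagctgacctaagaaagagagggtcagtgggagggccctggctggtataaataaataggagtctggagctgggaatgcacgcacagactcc

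The HDE difference was present without and with NNK. In HDE only against saline only lungs, 3 of 9 members were higher at the minimum of 20 counts, where 24.4% of 663 genes were, and 2 of the 3 members tested at the minimum of 87, where 30.2% of 388 genes were higher. The third, Ltbr, stood at -0.09 on the log2 scale (edgeR adjusted p = 0.67). Cxcl13 was 2.32-fold (adjusted p = 0.017), Ltb 1.77-fold (adjusted p = 0.012) and Ccr6 2.12-fold higher (adjusted p = 0.0022) by edgeR. Sex was unevenly spread there, with 1 female and 3 males in HDE only and 5 females and 1 male in saline only, so that sex and HDE are partly mixed. With the run 1 lane 12 library of HDE only left out, 1 member passed, and with that of run 2 lane 12 left out, the HDE library with the lowest Cxcl13, Cxcr5 and Ltb, 5 passed. In HDE + NNK against saline + NNK lungs the same 3 genes were higher, with 28.5% of 663 and 29.9% of 388 genes higher. Cxcl13 was 2.45-fold (adjusted p = 0.0059), Ltb 1.71-fold (adjusted p = 0.0090) and Ccr6 2.03-fold higher (adjusted p = 0.0017). Ccl19, Cxcr5 and Lta had log2 differences of 0.97, 0.88 and 1.03 there, with edgeR adjusted p of 0.068, 0.073 and 0.067. With the run as a term, 6 members passed in that comparison.

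NNK shifted none of the 9 genes past the threshold, in lung tissue from which tumors had been cut out. In HDE + NNK against HDE only lungs, 0 of 9 members and 0% of 388 genes passed by edgeR, with 8 genes at an unadjusted p under 0.05 and 0 genes adjusted by DESeq2. The smallest unadjusted p of a member was 0.19, for Ltbr. Cxcl13 averaged 196 ± 95.1 in HDE + NNK and 151.5 ± 77.1 in HDE only lungs (SD, n = 5 and 4), a ratio of 1.32 with a 95% interval of 0.771 to 2.26 (edgeR adjusted p = 0.996). In saline + NNK against saline only lungs the corresponding counts were 0 of 9 members and 0% of 388 genes, with 4 genes at an unadjusted p under 0.05 and 0 by DESeq2. Cxcl13 averaged 81.1 ± 32.0 in saline + NNK and 63.5 ± 27.5 in saline only lungs (SD, n = 6 each), a ratio of 1.25 (95% interval 0.774 to 2.01). With the run as a term that log2 difference was -0.03, the saline + NNK group having 4 of 6 and the saline only group 2 of 6 libraries in run 1. The HDE by NNK interaction passed for 0 of 9 members and 0% of 388 genes, with 4 at an unadjusted p under 0.05 and 0 by DESeq2. For Ccr6, group means in descending order were 102 ± 28.0 in HDE + NNK, 95.3 ± 25.3 in HDE only, 50.8 ± 15.1 in saline + NNK and 44.5 ± 7.45 in saline only lungs, and the neighbours that differ only in NNK were within 1 SD of each other. Cxcl13, Ltb, Cxcr5 and Lta had that same order of means. These genes and Ccr6 averaged higher in run 1 than in run 2 in both exposures. Run 1 held 4 of 5 HDE + NNK and 2 of 4 HDE only libraries, besides the uneven saline groups. NNK and the run are therefore partly mixed in that order.

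Scaling decided how many calls were made over the panel and, for the dim genes, whether they were made at all. The geometric mean of the 4 scaling genes was 496 to 1510 raw counts in HDE and 715 to 2283 in saline libraries, so that this scaling raised HDE libraries. It put the median of the 388 genes at log2 0.15 and that of the 663 genes at 0.37. By TMM, which put the median of the 388 genes at -0.04, the split of calls was 117 higher and 108 lower in place of 153 and 39. Cxcl13, Ltb, Ccr6, Ccl19, Cxcr5 and Lta kept a positive and Ccr7 and Ltbr a negative difference under each of the 5 scalings of the raw counts, and the first 6 still passed by TMM. At the minimum of 20 counts they stood at 0.93, 0.49, 0.73, 0.60, 0.51 and 0.62 by TMM, and at the minimum of 87 Cxcl13 and Ltb stood at 1.07 and 0.62. With the assay's positive controls, Cxcl13 alone passed (log2 0.97, adjusted p = 0.0040), and Ltb (0.57, adjusted p = 0.13) and Ccr6 (0.79, adjusted p = 0.060) did not. That fit called 55 of 388 genes higher and 31 lower. With sex as a term, on the counts with a floor of 87, Cxcl13 stood at 1.05 and Ltb at 0.74 on the log2 scale, both called. Only 13 of 21 libraries for Cxcl13 and 16 for Ltb reached 87 raw counts, and the others entered that fit at the floor before scaling. The median of the 388 genes was 0.19 there. Ccr6, with a mean raw count of 69.4, was not in that fit, so its difference was never fitted with sex. Sex was not set against the run in any fit. No column gives both, and the raw columns were not matched by their values to the columns that carry sex.

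The list for lymphotoxin receptor signaling holds genes downstream of the receptor and also related receptors and a ligand. Of its 14 tested genes, 4 were higher in HDE lungs and 0 lower, a smaller share than the 39.4% of all 388 genes. Their median was 0.11 on the log2 scale beside 0.15. Tnfrsf1b, a receptor that also binds secreted Lta, averaged 288 ± 148 in HDE and 127 ± 35.8 in saline lungs (log2 1.18, edgeR adjusted p = 0.00020). Traf3, which restrains the noncanonical pathway, differed by 0.41 (adjusted p = 0.025), Relb by 0.40 (adjusted p = 0.048) and Rel by 0.31 (adjusted p = 0.049). At the minimum of 20 counts, 3 of 15 were higher and 0 lower, Rel having an adjusted p of 0.057 there, and TMM turned these counts to 1 higher and 4 lower. The last 3 named did not pass by TMM at the minimum of 87, where they stood at 0.20, 0.20 and 0.13, and Traf3 was at -0.15 in run 2 alone. Nfkb2, the precursor of the partner of Relb, averaged 250.2 ± 92.0 in HDE and 198.5 ± 43.7 in saline lungs and did not pass (log2 0.32, adjusted p = 0.16). The related ligand Tnfsf14 (LIGHT), which also binds Ltbr, gave 34.6 ± 7.86 in HDE and 24.5 ± 7.58 in saline lungs (log2 0.49, adjusted p = 0.068 at the minimum of 20).

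Other genes of lymphoid tissue and germinal centres went both ways. At the minimum of 20 counts, 10 of 22 were higher and 1 lower, a share of higher genes near the 40% of all 663 genes, with a median of 0.54 beside 0.37. With positive control scaling 1 was higher. Il7r, the interleukin-7 receptor of lymphocytes, averaged 254 ± 99.4 in HDE and 79.9 ± 12.0 in saline lungs (log2 1.67, edgeR adjusted p = 3.9e-07). Icos, a T cell costimulator, was at 59.5 ± 18.1 in HDE and 27.8 ± 6.59 in saline lungs (log2 1.09, adjusted p = 6.7e-05). Tnfsf11 (RANKL), an inducer of lymph node development, was at 45.9 ± 20.7 in HDE and 18.9 ± 6.64 in saline lungs (log2 1.27, adjusted p = 0.00041). Il21r, Tnfrsf13c and Tnfsf13 were higher by 1.06, 1.25 and 0.81. Icam1 was lower, at 1109 ± 185 in HDE and 1436 ± 194 in saline lungs (log2 -0.37, adjusted p = 0.0036). Ccl21a, the other Ccr7 ligand, averaged 900.1 ± 135 in HDE and 1033 ± 68.7 in saline lungs (log2 -0.20), with an adjusted p of 0.047 over 388 genes and 0.051 over 663. Mouse Ccl21a has near-identical copies that this probe may not separate. Tnfsf13b (BAFF), a B cell survival factor, was at 62.9 ± 20.1 in HDE and 48.0 ± 10.8 in saline lungs and did not pass (log2 0.38, adjusted p = 0.10). Bcl6, the germinal centre factor of the list, was level, at 43.6 ± 13.6 in HDE and 44.5 ± 7.66 in saline lungs (log2 -0.03, edgeR adjusted p = 0.88). Icosl (log2 -0.03, edgeR adjusted p = 0.82) and Cd40 (log2 0.24, edgeR adjusted p = 0.15) did not pass either.

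**Figure D3:**
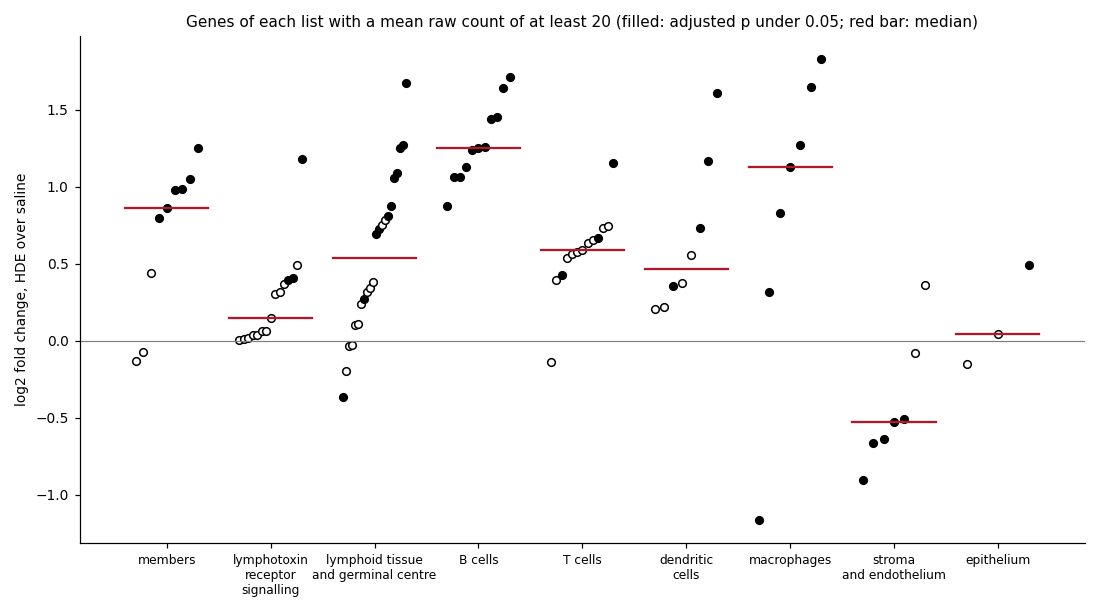
Log2 fold change of HDE over saline (y axis) of each tested gene of the 9 members and of 8 gene lists, at a minimum mean raw count of 20, with filled points for an adjusted p under 0.05 and red bars for medians. All 11 tested B cell genes were higher, 3 of 13 T cell genes were higher, and 5 of 7 stromal and endothelial genes were lower.

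Markers of B cells and macrophages were mostly higher, the number of T cell markers that passed depended on the fit, and those of endothelium were mostly lower. At the minimum of 20 counts used for these lists, 40% of 663 genes were higher. Of 12 B cell genes, 11 could be tested, and 11 were higher in HDE lungs with a median log2 difference of 1.25. Their summed count was 720.2 to 2195 in HDE and 391 to 895 in saline libraries, and 8 of 9 HDE libraries exceeded every saline library. Ms4a1 (CD20) averaged 336 ± 145 in HDE and 103 ± 32.5 in saline lungs (log2 1.71, edgeR adjusted p = 1.2e-06). The count of B cell genes called was 5 with positive control scaling and 6 in run 2 alone. Of 13 T cell genes, 3 were higher, a share below that of all genes, namely Cd4, Cd3g and Cd3d, with log2 differences of 1.15, 0.67 and 0.43, and the sum was 435 to 1035 in HDE and 324 to 660.4 in saline libraries. The difference was positive for 12 of the 13. The count called was 9 with the run as a term and 12 in run 1 alone, where 345 and 383 of 663 genes passed either way. It was 1 in run 2 alone and 0 with positive control scaling. Of 8 genes of the dendritic cell list on the panel 4 were higher (Itgax, Cd83, Ccl17 and Lamp3), a share near that of all genes. Flt3, Ccl22, Xcr1 and Cd207 did not pass. Lamp3 averaged 5205 ± 795 in HDE and 4091 ± 368 in saline lungs, far above Flt3 with 32.8 ± 12.4 and 21.9 ± 6.52. The 4 higher genes need therefore not stand for dendritic cells alone. Of 7 macrophage genes 6 were higher and 1, Marco, was lower. Endothelial Pecam1, Tek, Eng, Cdh5 and lymphatic Lyve1 were lower by 0.53, 0.66, 0.64, 0.51 and 0.90, and of 3 epithelial genes Muc1 was higher (log2 0.49). The part of these cell types in the differences of the 9 genes was not tested.

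**Figure D4:**
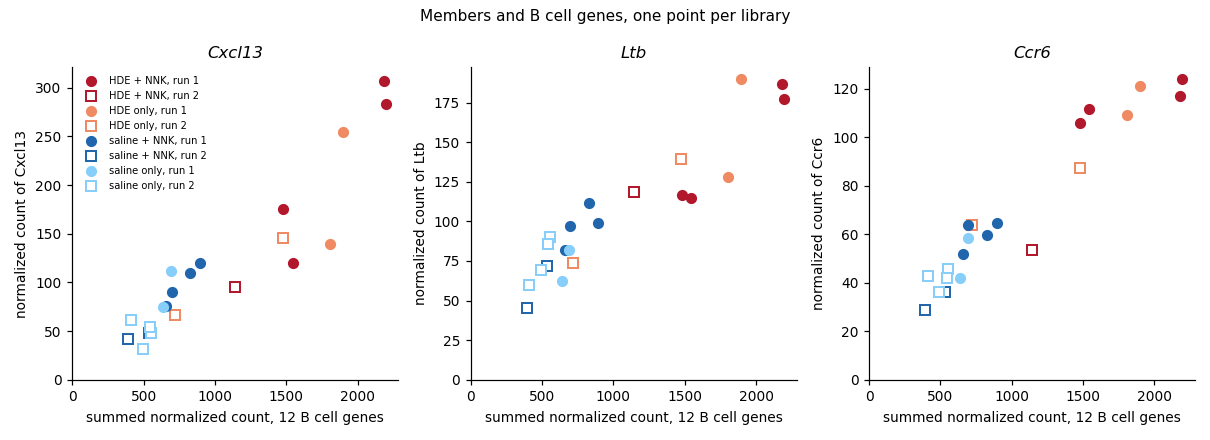
Normalized count of Cxcl13, Ltb and Ccr6 (y axes) against the summed normalized count of 12 B cell genes (x axis), 1 point per library, colored by group, with run 1 as filled circles and run 2 as open squares. HDE libraries reach B cell sums of 720.2 to 2195 and saline libraries 391 to 895, and all 3 genes are higher where the sum is higher.

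The 3 genes that passed in both runs were also set against the B cell genes. Per 100 summed B cell counts, Cxcl13 gave 7.70 to 14.1 (median 9.87) in HDE and 6.35 to 16.1 (median 11.6) in saline libraries, with wide overlap. Ltb gave 7.09 to 10.4 (median 8.55) in HDE and 9.81 to 16.3 (median 13.5) in saline libraries. Within run 1 the Ltb ratios met at the edge, with 7.09 to 10.0 in HDE and 9.81 to 13.98 in saline libraries, and within run 2 they were apart, with 9.45 to 10.4 in HDE and 11.6 to 16.3 in saline libraries. Ccr6 gave 4.69 to 8.84 (median 6.04) in HDE and 6.59 to 10.4 (median 7.56) in saline libraries. These ratios are descriptions, with no test, and they hold the background of dim probes in their denominator.

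Between animals of a group, the panel genes most like each brighter member were found by correlation. After subtraction of each group's mean, Cxcl13 had its highest Pearson r over 21 libraries with Ly86 (0.92), the partner of the Toll-like receptor relative Cd180, with Itgam (0.87), an integrin of macrophages and neutrophils, and with Pik3cd (0.86). For Ltb the highest was with Ms4a1 (0.90), and Ly86 (0.78) was also among the genes most like it. For Ltbr they were the endothelial receptor Eng (0.85), Tnfrsf1a (0.84) and Mapk3 (0.84). Among the members, Cxcl13 and Ccr6 had the highest r, 0.84, followed by Cxcr5 and Lta at 0.81, Ccr6 and Lta at 0.80 and Cxcl13 and Ltb at 0.76, and Cxcl13 and Ltbr had -0.08. All such values share the libraries, their run and their scaling. Cxcr5 and Lta lay above their library's background limit in only 9 and 8 of 21 libraries. The part of shared background in their r was not tested. Cxcl13 with Ly86 had an r of 0.82 in run 1 and 0.89 in run 2. With Itgam it was 0.66 in run 1 and 0.80 in run 2, and with Pik3cd 0.64 in run 1 and 0.77 in run 2.

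Ligands and receptors were not shown to vary together within an exposure. Of 16 correlations computed over 4 pairs, 0 passed after Benjamini-Hochberg adjustment, the smallest adjusted p being 0.18. Cxcl13 with Cxcr5 gave r = 0.71 (exact permutation p = 0.030) and rho = 0.48 (exact permutation p = 0.19) over the 9 HDE libraries, and r = 0.46 without the 2 libraries farthest from the Cxcl13 median. Within the 6 HDE libraries of run 1 it was -0.24. Lta with Ltb gave r = 0.60 (exact permutation p = 0.092) over HDE libraries and r = 0.67 (permutation p = 0.018) over the 12 saline libraries, and -0.07 within the HDE libraries of run 1. Ccl19 with Ccr7 and Ccl20 with Ccr6 gave r = 0.60 and 0.52 over HDE libraries, and -0.71 and -0.62 within run 1.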

How the data were processed

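Left lung RNA, 50 ng per mouse, was hybridized for 16 h to the mouse PanCancer Immune panel (784 probes) and read on an nCounter Sprint profiler with nSolver 4.0. The authors deposited raw counts in 1 table and, in another, counts in which every gene value under 87 stands at 87. After sorting within each probe, 16464 of 16464 values were equal once that floor was applied. The raw columns name group, run and lane, so that sex and replicate number were used only on the counts with the floor, whose columns carry them.

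Each library was 1 animal, and groups came from the labels. Counts were divided by the geometric mean of 4 genes that the study's methods name (Sdha, Rpl19, Oaz1, Eef1g). The test was edgeR 4.0.16 under R 4.3.3, quasi-likelihood with robust fitting and a mean for each of 4 groups, and p-values were adjusted over all genes tested (Benjamini-Hochberg, threshold 0.05). The HDE effect is the average of those without and with NNK. The main fit took the 388 genes averaging 87 raw counts or more. The value of 87 is the study's minimum, and applying it to the mean over libraries was a choice made here. A second fit took the 663 genes averaging 20 or more, since 6 of the 9 genes lay under 87. Intervals are 95%. Correlations used log2 (normalized count + 1). The genes, the lists (written from general knowledge) and the alternatives were chosen with earlier results of these data known. From the lists, up to 6 genes that passed with the smallest adjusted p are named, with Ccl21a, Tnfsf14, Nfkb2, Relb and Tnfsf13b in any case. Some list genes that did not pass are named beside them. The 3 genes most like each brighter member are named too, except for an item that is not reported here. Alternatives were scaling by TMM, by 20 housekeeping genes or by the positive controls, subtraction of background, other minimums, DESeq2 1.42.0, limma 3.58.1 on the deposited values, terms for run, sex or replicate number, each run alone and each library left out. Leaving out 2 doubted libraries (HDE only, run 2 lane 12, and saline only, run 2 lane 3), background subtraction with the run as a term and edgeR on the counts with the floor were chosen after seeing the data. The script was tested on simulated data. The number of animals and counts near background limit the precision.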

Additional observations from a re-analysis of the deposited data

Results flagged for a closer look

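Of 36 sets of values, 9 genes in 4 groups, 3 held a library whose gap to its nearest neighbour, as a share of the group's range, exceeded Dixon's 95% critical value of 0.71 for 5 libraries, and chance alone marks about 1 set in 20. All 3 were in HDE + NNK lungs. The library of run 2 lane 9, the group's only library of that run, was lowest for Ccr7, at 34.5 with the next at 62.9 (share 0.727), and lowest for Ccr6, at 53.6 with the next at 105.6 (share 0.740). The library of run 1 lane 11 was highest for Ltbr, at 333 with the next at 238 (share 0.785).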

How the results depend on the processing

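For HDE against saline, the 6 of 9 members called higher became 1 with positive control scaling and 3 in run 2 alone. Positive control scaling left log2 differences of 0.57 for Ltb, 0.71 for Ccl19, 0.65 for Cxcr5, 0.79 for Ccr6 and 0.66 for Lta, without a call, and 1 of the 3 brighter members called. Run 2 alone, with 3 HDE libraries, left 0.23 for Ccl19, 0.37 for Cxcr5 and 0.72 for Lta uncalled. Ccl19 lost its call with background subtracted (1.40) and with the run as a term besides (1.47). Ccl20 gained a call in run 1 (0.58) and without both doubted libraries (0.65). Ccr7 gained a lower call by TMM (-0.44) and with DESeq2's own size factors (-0.45), and Ltbr by TMM (-0.26), all housekeeping genes (-0.17) and DESeq2's own size factors (-0.27). Limma on the deposited values, with no scaling between libraries, called 0 of the 3 brighter members higher (Cxcl13 0.49, Ltb 0.24) and Ltbr lower (-0.60). Requiring 87 counts in every library left Cxcl13 and Ltb untested.

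Over 388 genes, the 153 higher calls became 55 with positive control scaling, 91 in run 2 alone, 45 by limma without scaling and 83 where 87 counts were needed in every library, and 265 and 263 with a minimum of 20 and with none. The 39 lower calls became 108 by TMM, 113 with DESeq2's own size factors, 71 with all housekeeping genes, 129 by limma and 18 in run 1 alone. In HDE only against saline only lungs, 3 members called became 1 by TMM, 0 with positive control scaling and 5 in run 1 alone and without both doubted libraries. In HDE + NNK against saline + NNK lungs they became 0 with positive control scaling and in run 2 alone, 6 with the run as a term and in run 1 alone, and 5 without both doubted libraries and with DESeq2 on the 4 scaling genes.

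Leaving out each of 21 libraries kept 5 to 7 members called for HDE against saline, 1 to 5 for HDE only against saline only and 3 to 6 for HDE + NNK against saline + NNK, where leaving out the HDE + NNK library of run 2 lane 9 gave 6. The log2 difference ran from 0.36 to 0.57 for Ccl20 and from 0.80 to 1.15 for Lta. It stayed called for Cxcl13 (1.09 to 1.37), Ltb (0.70 to 0.89), Ccr6 (0.99 to 1.13), Ccl19 (0.77 to 1.12) and Cxcr5 (0.73 to 1.01).

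The NNK difference of Cxcl13, never called, changed sign to -0.20 in run 2 alone for HDE + NNK against HDE only. For saline + NNK against saline only it was -0.028 with the run as a term, -0.17 in run 2 alone and, on the counts with the floor, -0.15 with sex as a term, -0.19 with no replicate block and -0.21 with the block.

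Same-numbered libraries had correlations of their deviations between -0.23 and 0.51 over 28 pairs (median 0.12). Libraries with other numbers had -0.59 to 0.45 over 136 pairs (median -0.035). The replicate numbers were not taken as pairs in the main fit. On the counts with the floor, the replicate block gave 145 higher and 30 lower genes, against 162 and 32 without it. It gave log2 differences of 0.84 for Cxcl13 (adjusted p = 0.00067) and 0.62 for Ltb (adjusted p = 0.0025), against 1.04 and 0.75 without it.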
